A study of Mus musculus with 13 samples.

Results

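Wfdc2, Hapln4, Cecr2, Chn1, Arhgap10, H2afy2 and Fign are 7 protein-coding genes, of 21420 identifiers counted in both deposited tables, that were chosen by their read counts: their level was higher in every Ezh2 knockout (KO) crypt library than in every wild-type (WT) crypt library of the mouse small intestine. The Ezh2 KO and WT crypt libraries therefore chose the genes, and their values in that contrast are given as a description only. The Eed KO libraries took no part in this order, but the comparison of Eed KO with WT crypts shares its WT libraries with it. The organoid comparison shares no library with it. The order alone does not single out the 7, since 1521 other genes met it. How the 7 were taken from these is not stated. They were chosen with earlier results of these data known, so the Eed KO comparisons in crypts and organoids may not be independent of the choice.

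The 13 libraries fell into 5 groups. Ezh2 KO (Ezh2-/-, n = 3), Eed KO (Eed-/-, n = 3) and WT (n = 3) crypts, the epithelial pockets that hold intestinal stem cells and Paneth cells, came from mice of a C57BL/6-FVB mixed background that were 6 weeks old when beta-naphthoflavone was started and were given it for 6 weeks. Eed KO organoids (n = 2), grown from AhCre;Eedf/f crypts of C57BL/6-FVB background, and WT organoids (n = 2), grown from AhCre crypts of FVB background, were given the same compound for 10 days. Beta-naphthoflavone, which all 5 groups received, switches on the AhCre recombinase. Library names carry AhCre for every organoid, every Ezh2 KO crypt, 1 Eed KO crypt and 1 WT crypt. Among these, knockout names add Ezh2FF or EedFF, and WT names add neither. Names of the remaining crypt libraries do not carry AhCre. AhCre acts in the intestinal epithelium, so other cells in a crypt preparation may keep intact alleles. Whether the libraries of 1 group stem from different mice or cultures is not labelled, so a p-value here reflects differences between libraries that could be technical.

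EZH2 is the catalytic subunit and EED an essential core subunit of Polycomb repressive complex 2 (PRC2), which methylates histone H3 on lysine 27 and keeps many developmental genes silent. EZH1 can stand in for EZH2 in part, whereas the complex does not work without EED. In mammals PRC2 is found mostly at promoters rich in CpG dinucleotides. The 7 genes have separate roles: Wfdc2 and Hapln4 encode secreted proteins, Chn1 and Arhgap10 encode activators of GTP hydrolysis by small GTPases, Cecr2 and H2afy2 encode chromatin proteins, and Fign encodes a microtubule-severing enzyme.

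The promoter sequences of the genes are shown because CpG density is the sequence feature best known to go with PRC2 binding. RefSeq windows of GRCm38.p6, each 300 bases long from 250 bases before to 50 bases after a transcription start, matched 4 of the 7 genes. Hapln4, Cecr2 and Arhgap10 had no entry. Each window is printed 5′ to 3′ on the gene's own strand, with the CpG dinucleotides in capitals. The Wfdc2 window is chr2:164562465-164562764 (plus strand), that of H2afy2, listed as Macroh2a2, is chr10:61783815-61784114 (minus), and that of Fign is chr2:64097989-64098288 (minus). Chn1 has an upstream start with the window chr2:73775297-73775596 and a downstream start with the window chr2:73660374-73660673, both on the minus strand.
Wfdc2: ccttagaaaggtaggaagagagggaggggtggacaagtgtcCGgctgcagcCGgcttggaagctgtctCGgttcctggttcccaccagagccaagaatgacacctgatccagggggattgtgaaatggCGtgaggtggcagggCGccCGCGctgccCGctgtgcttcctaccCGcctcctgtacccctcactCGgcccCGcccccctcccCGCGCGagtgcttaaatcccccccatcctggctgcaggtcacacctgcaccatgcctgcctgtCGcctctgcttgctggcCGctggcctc
H2afy2: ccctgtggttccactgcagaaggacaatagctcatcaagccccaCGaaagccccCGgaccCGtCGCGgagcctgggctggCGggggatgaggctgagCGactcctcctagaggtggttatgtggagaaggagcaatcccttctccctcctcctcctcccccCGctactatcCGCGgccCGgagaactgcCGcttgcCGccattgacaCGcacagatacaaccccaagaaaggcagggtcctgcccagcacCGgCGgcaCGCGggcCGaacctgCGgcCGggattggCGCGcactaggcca
Fign: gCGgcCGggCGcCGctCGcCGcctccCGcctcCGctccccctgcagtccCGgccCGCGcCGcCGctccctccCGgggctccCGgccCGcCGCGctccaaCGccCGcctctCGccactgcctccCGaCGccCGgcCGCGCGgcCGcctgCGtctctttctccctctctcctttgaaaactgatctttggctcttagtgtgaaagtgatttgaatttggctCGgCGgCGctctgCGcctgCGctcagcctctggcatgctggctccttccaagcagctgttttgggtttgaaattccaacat
Chn1, upstream start: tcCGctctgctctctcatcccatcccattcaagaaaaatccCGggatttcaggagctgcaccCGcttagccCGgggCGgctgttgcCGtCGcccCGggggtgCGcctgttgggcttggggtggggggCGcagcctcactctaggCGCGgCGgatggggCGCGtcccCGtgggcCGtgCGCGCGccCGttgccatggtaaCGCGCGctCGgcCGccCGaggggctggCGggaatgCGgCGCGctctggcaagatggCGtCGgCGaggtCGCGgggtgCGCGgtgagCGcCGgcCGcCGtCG
Chn1, downstream start: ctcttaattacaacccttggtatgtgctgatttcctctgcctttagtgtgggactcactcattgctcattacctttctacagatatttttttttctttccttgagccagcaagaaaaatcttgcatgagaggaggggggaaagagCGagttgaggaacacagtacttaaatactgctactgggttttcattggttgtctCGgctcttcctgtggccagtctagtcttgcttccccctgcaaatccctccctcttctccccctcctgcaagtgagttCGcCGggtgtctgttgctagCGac

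The motif searched was CG, which reads the same on both strands. Over 32851 promoter windows the median was 7 CpG. The upstream Chn1 window held 43 CpG, a number reached by 2.61% of all windows, and the Fign window held 34, reached by 7.73%. The H2afy2 window held 23 CpG, reached by 21.5% of windows, and the Wfdc2 window 16, reached by 33.0%. The downstream Chn1 window held 5 CpG, which 62.0% of windows reached. The counts per gene do not tell the Chn1 starts apart. These are descriptions of the letters in each window and not of binding, which was not measured.

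**Figure D1:**
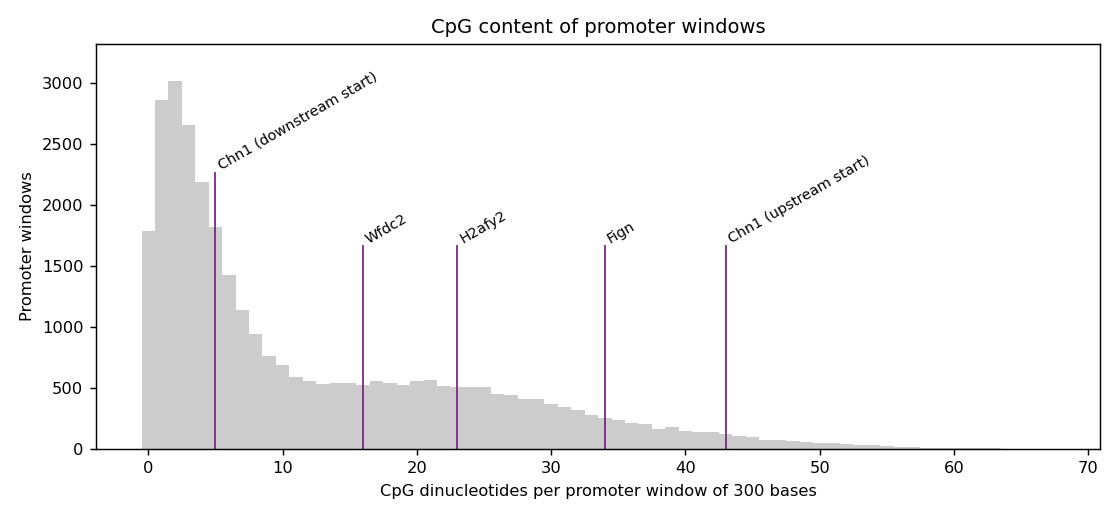
Number of promoter windows of 300 bases (vertical axis) by the number of CpG dinucleotides in the window (horizontal axis), over 32851 RefSeq windows in grey; purple lines mark the windows of the 4 genes with an entry. The upstream Chn1 window (43 CpG) and the Fign window (34) lie in the right tail, and the downstream Chn1 window (5) lies below the median of 7.

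Libraries held 11421666 to 18300644 counts and came from sequencing runs 385 and 440, as the labels name them. All 3 Ezh2 KO crypts were in run 440 with 1 Eed KO and 1 WT crypt, and the other crypts and all organoids were in run 385. Libraries are named below by run and title number. Ezh2 averaged 19.1 ± 2.29 CPM, the count scaled to library size, in Ezh2 KO and 86.0 ± 12.2 CPM in WT crypts (SD, n = 3 each). Eed averaged 19.1 ± 5.16 CPM in Eed KO and 54.5 ± 5.26 CPM in WT crypts (SD, n = 3 each), and 24.8 ± 7.98 CPM in Eed KO and 67.9 ± 7.83 CPM in WT organoids (SD, n = 2 each). Mitochondrially encoded transcripts took 3.85% to 6.46% of counts in Ezh2 KO, 3.71% to 18.0% in Eed KO and 8.65% to 14.5% in WT crypts. The WT crypts of run 385 had low Xist and high Ddx3y counts, a male pattern, whereas all other crypts had a female pattern. Within run 385, genotype and this pattern therefore cannot be told apart in crypts. The WT crypt of run 440 was the only WT crypt that shared the pattern of the knockout crypts. Eed KO organoids had a male and WT organoids a female pattern, so genotype, strain background and this pattern cannot be told apart in organoids. None of the 7 genes is on X or Y. All 11 crypt base stem cell markers and all 10 Paneth cell markers listed had counts in each of the 5 groups.

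The choice of genes rested on the order of libraries. That order was met by 1528 of 14406 genes tested, or 10.6%, so 1521 other genes met it too. At the edge of the rule, Gnb1l had a lowest Ezh2 KO value of 9.68 CPM, just above the highest WT value, and Nme6 had a lowest Ezh2 KO value just below its highest WT value of 12.9 CPM. Of the 7 genes, 6 were among the 50 with the largest ratio of lowest Ezh2 KO to highest WT level. Hapln4 had the largest such ratio of the 7 at 43.6, followed by Fign at 7.09, H2afy2 at 3.64, Chn1 at 3.51, Wfdc2 at 3.13 and Arhgap10 at 2.75. Cecr2 was at 1.66, and 132 genes outside the 7 were at or above it. Over all 14406 genes, edgeR's quasi-likelihood test called 0 genes higher in Ezh2 KO crypts at an adjusted p of 0.05 (0%), with 515 at an unadjusted p of 0.05 and 34 by DESeq2.

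**Figure D2:**
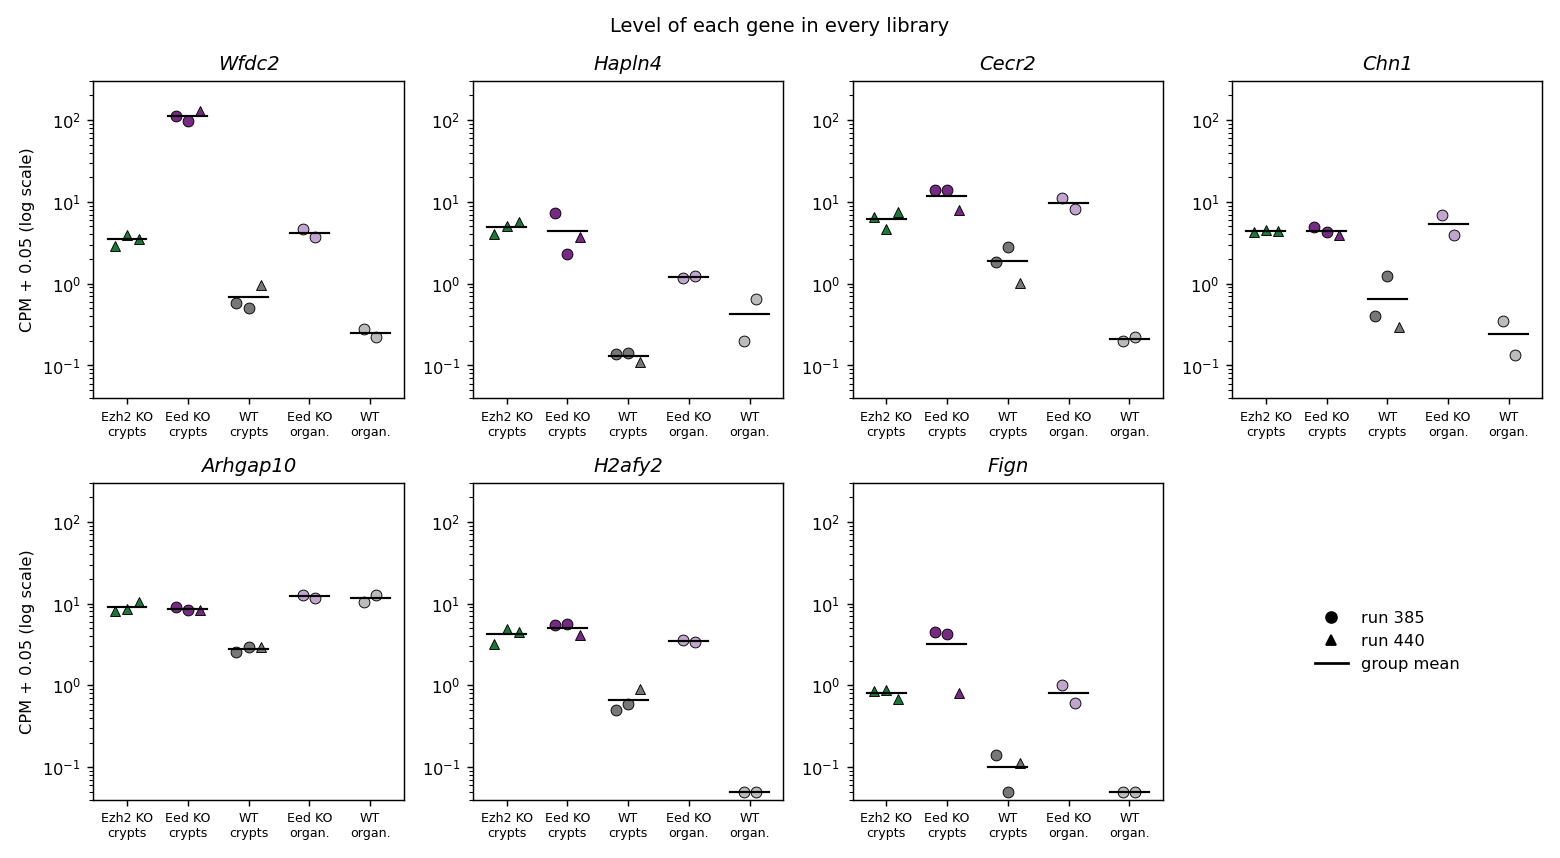
Level of each gene (CPM + 0.05, log axis) in every library of the 5 groups; circles are libraries of run 385, triangles libraries of run 440 and bars group means. In crypts all Ezh2 KO and Eed KO points lie above all WT points for every gene, and in organoids only Arhgap10 has overlapping groups.

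Wfdc2 encodes a small secreted protein with whey acidic protein (WAP) domains, made by many epithelia and known in humans as the serum marker HE4. The gene lies at chr2:164562413-164568510 on the plus strand of GRCm38. It had 2.87, 3.93 and 3.47 CPM in the Ezh2 KO crypts, against 0.534, 0.458 and 0.919 CPM in the WT crypts. The Eed KO crypts had 111, 97.0 and 129 CPM, far above every library of either other crypt group. In organoids it had 4.62 and 3.70 CPM in Eed KO, against 0.225 and 0.171 CPM in WT. Wfdc2 was thus the gene of the 7 for which the knockouts differed most: the summed level in Eed KO crypts was 33.4 times that in Ezh2 KO crypts, given without a test.

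The rise of Wfdc2 in Eed KO crypts was 7.44 ± 0.23 on the log2 scale (SE, adjusted p = 3.35e-06), and in Eed KO organoids 4.31 ± 0.48 (adjusted p = 0.00143). The fitted Ezh2 KO value was 2.10 ± 0.26 on the log2 scale, as a description. The rise was larger in crypts than in organoids by 3.11 ± 0.59 (log2, adjusted p = 0.0281), a call lost without WT crypt 385_2, Eed KO organoid 385_2 or either WT organoid. Crypts and organoids also differ in the length of induction, in strain background and in which genotype had the male pattern, which cannot be told apart from the culture. In bulk libraries, more cells that express a gene and more RNA per cell cannot be told apart. Tuft cell markers, a list of 12 genes, summed to 228 to 316 CPM in Eed KO and 46.6 to 271 CPM in WT crypts, and to 43.0 to 48.6 CPM in Eed KO and 6.01 to 11.3 CPM in WT organoids. In Ezh2 KO crypts they summed to 54.3 to 84.6 CPM, and their part in the Wfdc2 level was not tested.

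Other genes with WAP domains were examined as a family list of 25, of which 18 were in the tables. For this and all later lists, 13.4% of all genes tested were called higher and 10.6% lower in Eed KO crypts. In Eed KO organoids these shares were 13.5% and 4.63%. Every Ezh2 KO library was above every WT library for 10.6% of all genes tested. Of 6 tested in crypts, 2 were higher and 0 lower in Eed KO (3 and 1 at an unadjusted p of 0.05, 3 and 0 by DESeq2), with a median of 1.15 on the log2 scale against -0.04 over all genes tested. Wfdc18 averaged 11.2 ± 2.75 CPM in Eed KO and 0.0806 ± 0.0168 CPM in WT crypts, where it had 3 counts in all, for a ratio of 148 (95% counting interval 50.5 to 722). Wfdc15b averaged 8.0 ± 1.35 CPM in Eed KO and 0.379 ± 0.373 CPM in WT crypts, a log2 change of 4.41 ± 0.60 (adjusted p = 0.00126) that was 5.45 without WT crypt 385_1. In Ezh2 KO crypts Wfdc18 averaged 0.168 ± 0.0967 CPM and Wfdc15b 0.442 ± 0.222 CPM, and none of the 6 tested genes had every Ezh2 KO library above every WT library. In organoids both Wfdc18 and Wfdc15b were called higher in Eed KO, Wfdc18 with 57 counts against 0 in WT and Wfdc15b with 59 counts against 1 in WT. Slpi, the secretory leukocyte protease inhibitor, averaged 81.0 ± 31.5 CPM in Eed KO and 75.6 ± 77.8 CPM in WT crypts and did not pass the test (adjusted p = 0.709).

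Hapln4 encodes a link protein that ties hyaluronan to proteoglycans, best known from the matrix around brain neurons. It lies at chr8:70083529-70090862 on the plus strand. It had 4.0, 5.07 and 5.67 CPM in the Ezh2 KO crypts and 7.26, 2.28 and 3.70 CPM in the Eed KO crypts. Each WT crypt library held 1 count, or 0.0889, 0.0916 and 0.0612 CPM. The knockouts overlapped with each other, and neither overlapped with WT.

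With 3 counts in all WT crypts, the ratio of Eed KO to WT was 56.3 (95% counting interval 19.0 to 276, adjusted p = 0.000548), and that of Ezh2 KO to WT was 63.0 (21.3 to 308), given as a description. Organoids had 1.12 and 1.21 CPM in Eed KO, against 0.150 and 0.600 CPM in WT. The groups did not overlap, but the log2 difference of 1.64 ± 0.65 did not pass the test (adjusted p = 0.136), and it was 0.93 without WT organoid 385_1 and 2.88 without WT organoid 385_2. The Eed effect was larger in crypts than in organoids by 3.99 ± 1.06 on the log2 scale, short of the threshold (adjusted p = 0.0599), and it passed by DESeq2 and without Eed KO crypt 385_2. It was 4.69 without WT organoid 385_1 and 2.76 without WT organoid 385_2.

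The other link proteins did not pass the filter on low counts. Hapln1 averaged 0.378 ± 0.109 CPM in Ezh2 KO and 0.0408 ± 0.0707 CPM in WT crypts, and had 0 counts in Eed KO crypts. Hapln3 averaged 0.147 ± 0.131 CPM in Ezh2 KO, 0.653 ± 0.189 CPM in Eed KO and 0.0602 ± 0.0521 CPM in WT crypts. Of 7 tested partners in hyaluronan matrix, 3 were higher and 0 lower in Eed KO crypts (3 and 1 at an unadjusted p of 0.05, and by DESeq2), with a median log2 change of 0.66. Tnc, which encodes the matrix protein tenascin C, rose by 3.23 ± 0.41 on the log2 scale (adjusted p = 0.00094). Cd44, the main hyaluronan receptor, was higher by 1.16 ± 0.25 (adjusted p = 0.0102), a call lost with replicate numbers as a block in a fit without the Ezh2 KO libraries (adjusted p = 0.0839) and without WT crypt 385_2 (adjusted p = 0.0635). In organoids 4 of 6 were higher and 0 lower (5 and 1 at an unadjusted p of 0.05, 3 and 0 by DESeq2), with a median of 1.58 against -0.00 over all genes. They included Habp2, a protease that binds hyaluronan, at 2.17 ± 0.20 (adjusted p = 0.000788), and Vcan, the proteoglycan versican, at 2.65 ± 0.63 (adjusted p = 0.0263). The Vcan value was 4.23 without WT organoid 385_1 and 1.98 without WT organoid 385_2, and its call was lost by DESeq2 (adjusted p = 0.0589) and in 3 of the 4 fits that left out 1 library. Cd44 averaged 134 ± 13.6 CPM in Ezh2 KO and 132 ± 14.9 CPM in WT crypts, and 0 of the 7 tested partners had every Ezh2 KO library above every WT library.

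Since Hapln4 and Chn1 are best known from neurons, markers of enteric neurons and glia were summed over 15 measured genes of a list of 16. They reached 7.73 to 11.5 CPM in Ezh2 KO, 13.4 to 18.3 CPM in Eed KO and 10.1 to 12.6 CPM in WT crypts. Of 6 tested in crypts, 0 were higher or lower in Eed KO (1 higher at an unadjusted p of 0.05, 0 by DESeq2). Gap43, S100b and Vip had 0 counts in Ezh2 KO crypts, as did Vip in Eed KO crypts and S100b in WT crypts. In organoids the sum was 20.3 to 23.3 CPM in Eed KO and 7.74 to 8.39 CPM in WT, with Nos1 and Vip at 0 counts in both groups and 2 of 4 tested genes higher in Eed KO. The part of these cells in the levels of Hapln4 and Chn1 was not tested.

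Chn1 encodes alpha-chimaerin, a phorbol ester-binding protein that turns off the GTPase RAC and acts downstream of the receptor EPHA4 in axon guidance. It lies at chr2:73610660-73775346 on the minus strand. It had 4.18, 4.50 and 4.35 CPM in the Ezh2 KO crypts and 4.92, 4.23 and 3.93 CPM in the Eed KO crypts. The WT crypts had 0.356, 1.19 and 0.245 CPM. Both knockouts stood apart from WT and averaged nearly the same level, 4.34 ± 0.159 CPM in Ezh2 KO and 4.36 ± 0.505 CPM in Eed KO (SD, n = 3 each).

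On the log2 scale Chn1 was higher in Eed KO than in WT crypts by 2.97 ± 0.47 (adjusted p = 0.00256), and by 3.79 without WT crypt 385_2, the WT library with the highest level. The description for Ezh2 KO was 3.39 ± 0.60. In organoids it had 6.77 and 3.86 CPM in Eed KO, against 0.301 and 0.0857 CPM in WT, a log2 difference of 4.67 ± 0.59 (adjusted p = 0.00245) that was 5.78 without WT organoid 385_1. The Eed effects in crypts and organoids differed by -1.72 ± 0.86 (log2, adjusted p = 0.346), which did not pass the test, and by -0.84 without WT crypt 385_2 and -2.85 without WT organoid 385_1. An antisense gene, Gm13704, overlaps the 3′ end of Chn1 and averaged 0.188 CPM in Ezh2 KO, 3.08 CPM in Eed KO and 0.263 CPM in WT crypts. It was higher in Eed KO by 3.61 ± 0.61 (log2, adjusted p = 0.0035), and by 4.37 without WT crypt 385_2. The kit kept strand, but the labels name no strand setting for counting, so reads of Chn1 and Gm13704 may not be told apart in Eed KO crypts.

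Chn2, the paralog that encodes beta-chimaerin, averaged 33.9 ± 2.65 CPM in Ezh2 KO, 33.9 ± 0.913 CPM in Eed KO and 29.0 ± 1.24 CPM in WT crypts, and did not pass the test for Eed KO (adjusted p = 0.249). In organoids the log2 difference of Chn2 was 0.55 ± 0.15 (adjusted p = 0.0442), a call lost by DESeq2 (adjusted p = 0.0808) and when any 1 of the 4 libraries was left out (adjusted p = 0.0772 to 0.244). Among 15 signalling partners tested in crypts, 1 was higher and 2 lower in Eed KO (4 and 2 at an unadjusted p of 0.05, and by DESeq2), with a median log2 change of 0.09, and 4 had every Ezh2 KO library above every WT library. The gene called higher was Vav3, an activator of RAC, at 1.5 ± 0.38 (adjusted p = 0.0222). Its call was lost without the Ezh2 KO libraries (adjusted p = 0.0507), with replicate numbers as a block besides (adjusted p = 0.0808), and without Eed KO crypt 385_2, WT crypt 385_1 or WT crypt 385_2 (adjusted p = 0.0588 to 0.101). Of 14 tested in organoids, 4 were higher and 0 lower (4 and 1 at an unadjusted p of 0.05, 1 and 0 by DESeq2), with a median of -0.08. Epha4 rose there by 1.93 ± 0.25 (adjusted p = 0.00262). Efnb3, a ligand of EPHA4, was higher by 1.94 ± 0.50 (adjusted p = 0.036), a call lost by DESeq2 (adjusted p = 0.151) and when any 1 of the 4 libraries was left out (adjusted p = 0.0529 to 0.187).

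Arhgap10, also called GRAF2, encodes a membrane-bending BAR-domain protein that stimulates GTP hydrolysis by RHOA and CDC42. It lies at chr8:77250366-77517907 on the minus strand. It had 8.05, 8.43 and 10.5 CPM in the Ezh2 KO crypts and 8.97, 8.20 and 8.22 CPM in the Eed KO crypts. The WT crypts had 2.49, 2.93 and 2.88 CPM, all below both knockouts. Arhgap10 had the highest WT crypt level of the 7 genes per kilobase of exon and the smallest rise in Eed KO crypts. In organoids its groups overlapped, with 12.6 and 11.7 CPM in Eed KO and 10.3 and 12.8 CPM in WT.

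The rise of Arhgap10 in Eed KO crypts was 1.61 ± 0.23 on the log2 scale (adjusted p = 0.00159), and the description for Ezh2 KO was 1.69 ± 0.28. In run 440 alone, which sets 1 Eed KO library against 1 WT library and takes the spread from the Ezh2 KO libraries, the log2 difference was 1.64 (adjusted p = 0.0615). In organoids the log2 difference was 0.08 ± 0.21 (adjusted p = 0.85), with a ratio of 1.06 (95% counting interval 0.901 to 1.25). The Eed effect was larger in crypts by 1.53 ± 0.30 (log2, adjusted p = 0.0205), and this call was lost when any 1 of the 4 organoid libraries was left out. WT organoids stood at 11.5 ± 1.74 CPM, above the Eed KO crypts at 8.46 ± 0.442 CPM and the WT crypts at 2.77 ± 0.241 CPM, though the crypts and organoids are not matched in run, strain or induction.

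The GRAF family genes Arhgap26 and Arhgap42 did not pass the test in crypts or organoids. Arhgap26 averaged 27.3 ± 3.61 CPM in Eed KO and 18.1 ± 6.75 CPM in WT crypts (adjusted p = 0.156), and Arhgap42 21.3 ± 6.05 CPM in Eed KO and 29.9 ± 9.29 CPM in WT crypts (adjusted p = 0.117). Of 30 GTPase-activating proteins of the same kind tested beside Arhgap10, 6 were higher and 3 lower in Eed KO crypts (8 and 5 at an unadjusted p of 0.05, 6 and 3 by DESeq2), with a median log2 change of 0.25. Over all genes tested in crypts, 13.4% were called higher and 10.6% lower. In Eed KO organoids 8 of the 30 were higher and 2 lower (13 and 3 at an unadjusted p of 0.05, 9 and 2 by DESeq2), with a median of 0.30, where 13.5% of all genes tested were called higher and 4.63% lower. Srgap3, a regulator of RAC in neurons, rose by 3.59 ± 0.28 in crypts (adjusted p = 0.00016) and by 2.94 ± 0.41 in organoids (adjusted p = 0.00334), where it was 3.59 without WT organoid 385_2. Arhgap44 was lower in Eed KO organoids, with a log2 change of -2.50 ± 0.31 (adjusted p = 0.00229). In Eed KO crypts its log2 change was 2.40 ± 0.61 (adjusted p = 0.0209). That crypt call was lost without Eed KO crypt 385_1 (log2 change 1.79, adjusted p = 0.0597), WT crypt 385_1 (adjusted p = 0.0569) or WT crypt 385_2 (adjusted p = 0.0743), and with replicate numbers as a block (adjusted p = 0.103). In Ezh2 KO crypts 4 of the 30 had every library above every WT library, and Srgap3 averaged 2.41 ± 0.292 CPM there, against 1.88 ± 0.60 CPM in WT crypts.

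Cecr2 encodes a bromodomain protein that binds acetylated histones and pairs with the ISWI remodelling ATPases, and its loss in mice causes neural tube defects. It lies at chr6:120666369-120771190 on the plus strand. It had 6.49, 4.56 and 7.56 CPM in the Ezh2 KO crypts and 13.7, 13.9 and 7.87 CPM in the Eed KO crypts. The WT crypts had 1.78, 2.75 and 0.98 CPM. The Eed KO crypt and the WT crypt of run 440 were each the lowest of their group, and all Ezh2 KO libraries came from that run. In organoids Cecr2 had 11.0 and 8.04 CPM in Eed KO, against 0.150 and 0.171 CPM in WT.

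In Eed KO crypts Cecr2 rose by 2.74 ± 0.30 on the log2 scale (adjusted p = 0.000499), and in Eed KO organoids by 5.80 ± 0.44 (adjusted p = 0.000348), with 238 against 4 counts. The description for Ezh2 KO crypts was 2.49 ± 0.38. The Eed effect was smaller in crypts than in organoids, with a difference of -3.09 ± 0.57 (log2, adjusted p = 0.0152), a call lost without either WT organoid. Of 24 other bromodomain and ISWI remodelling genes tested, 0 were higher and 4 lower in Eed KO crypts (1 and 8 at an unadjusted p of 0.05, 0 and 7 by DESeq2), with a median log2 change of -0.37. Of all genes tested in crypts, 13.4% were called higher and 10.6% lower. In organoids 0 of 24 were higher or lower (0 and 1 at an unadjusted p of 0.05, 0 by DESeq2), with a median of -0.12. Smarca5, the ISWI ATPase that partners CECR2 in testis, averaged 89.0 ± 50.5 CPM in Eed KO and 119 ± 10.9 CPM in WT crypts (adjusted p = 0.27). None of the 24 had every Ezh2 KO library above every WT library.

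H2afy2 encodes macroH2A2, a histone H2A variant with a large non-histone domain found in silent chromatin. It lies at chr10:61738665-61784147 on the minus strand. It had 3.12, 4.82 and 4.47 CPM in the Ezh2 KO crypts and 5.46, 5.58 and 4.05 CPM in the Eed KO crypts, against 0.445, 0.550 and 0.857 CPM in the WT crypts. The knockouts overlapped with each other and not with WT. In organoids it had 3.59 and 3.30 CPM in Eed KO and 0 counts in both WT libraries.

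H2afy2 rose in Eed KO crypts by 2.99 ± 0.39 on the log2 scale (adjusted p = 0.000996), and the description for Ezh2 KO was 2.67 ± 0.45. In run 440 alone, 1 Eed KO against 1 WT library, the log2 difference was 2.36 (adjusted p = 0.0574). In organoids the 86 counts of Eed KO were at least 28.7-fold higher than a floor of 3 counts over the WT group (adjusted p = 0.00178). The fitted difference between the Eed effects in crypts and organoids, -5.59 ± 1.16 on the log2 scale (adjusted p = 0.0271), depends on the prior count because WT organoids had no count, and the call was lost without Eed KO crypt 385_1, WT crypt 385_2 or any organoid library. The 3′ end of H2afy2 overlaps Aifm2 on the opposite strand over chr10:61738665-61739260. Aifm2 averaged 14.5 CPM in Ezh2 KO, 16.7 CPM in Eed KO and 12.0 CPM in WT crypts and did not pass the test for Eed KO (adjusted p = 0.0836).

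H2afy, the paralog that encodes macroH2A1, stood at 211 ± 7.12 CPM in Ezh2 KO, 179 ± 22.5 CPM in Eed KO and 193 ± 12.1 CPM in WT crypts, and did not pass the test for Eed KO (log2 change -0.10 ± 0.13, adjusted p = 0.615). Of 15 other H2A variants and macroH2A partners tested, 1 was higher and 5 lower in Eed KO crypts (1 and 9 at an unadjusted p of 0.05, 1 and 8 by DESeq2), with a median log2 change of -0.62. H2afv, an H2A.Z variant, fell by 1.38 on the log2 scale (SE 0.15, adjusted p = 0.00054). Of 12 proliferation markers, 10 were lower and 0 higher in Eed KO crypts (11 and 0 at an unadjusted p of 0.05, 10 and 0 by DESeq2), and their part in the H2A variant counts was not tested. In organoids 0 of the 15 were higher or lower (0 and 1 at an unadjusted p of 0.05, 0 by DESeq2). In Ezh2 KO crypts 3 of the 15 had every library above every WT library.

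Fign encodes fidgetin, an AAA ATPase that severs microtubules. It lies at chr2:63971507-64098038 on the minus strand and had the lowest level per kilobase of exon of the 7 genes in each crypt group. It had 0.812, 0.824 and 0.630 CPM in the Ezh2 KO crypts, against 0.0889, 0 and 0.0612 CPM in the WT crypts, which is 36 against 2 counts. The Eed KO crypts had 4.45 and 4.23 CPM in run 385 and 0.763 CPM in run 440, so the Eed KO library of run 440 lay within the Ezh2 KO range and the others lay 5.68 times above it on average. In organoids Fign had 0.956 and 0.563 CPM in Eed KO and 0 counts in both WT libraries.

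With 2 counts in WT crypts, the ratio for Fign was 14.5 in Ezh2 KO (95% counting interval 3.74 to 125), as a description, and 55.4 in Eed KO (15 to 463, adjusted p = 0.000776). The fitted log2 change in Eed KO of 5.45 ± 0.67 was 6.27 without Eed KO crypt 440_1, 4.69 without WT crypt 385_2 and 6.33 without WT crypt 440_1. In run 440 alone, 1 Eed KO against 1 WT library, it was 3.61 (adjusted p = 0.0862). In organoids the gene was below the filter on low counts, and its 19 counts in Eed KO were at least 6.33-fold above a floor of 3 counts over the WT group. The fitted difference between the Eed effects in crypts and organoids, -0.95 ± 0.98 on the log2 scale, did not pass the test (adjusted p = 0.774), and its size depends on the prior count because WT organoids had no count. It was -0.04 without Eed KO crypt 440_1, -0.11 without WT crypt 440_1 and -1.77 without WT crypt 385_2. Fignl2, a fidgetin-like gene, rose by 2.22 ± 0.45 (adjusted p = 0.00792) and Fignl1, whose product acts in DNA repair, fell by 1.11 (SE 0.23, adjusted p = 0.0076) on the log2 scale in Eed KO crypts. By edgeR these were the only ones past the threshold of 9 other severing ATPases and their relatives tested (1 higher and 3 lower at an unadjusted p of 0.05, and by DESeq2), and the median was -0.23. In organoids 0 of 9 passed the test in either direction (2 and 2 at an unadjusted p of 0.05, 0 by DESeq2).

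**Figure D3:**
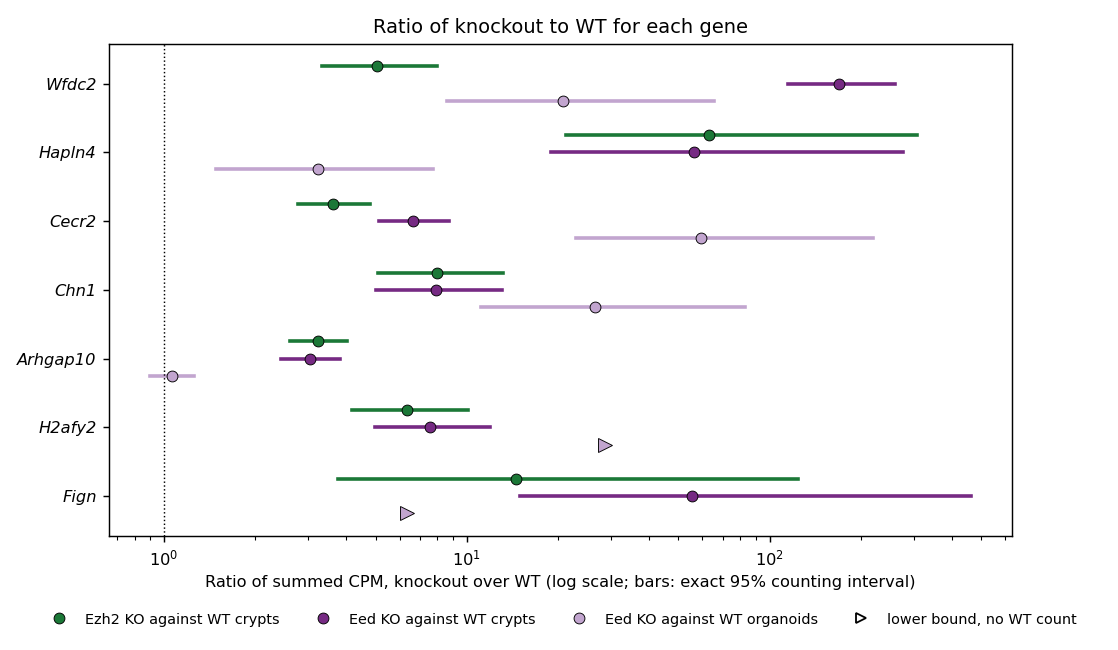
Ratio of summed CPM in knockout over WT for each gene (log axis), with exact 95% counting intervals as bars, for Ezh2 KO and Eed KO crypts and Eed KO organoids; triangles are lower bounds where WT organoids had no count. Wfdc2 has the widest gap between the Eed KO (169) and Ezh2 KO (5.06) crypts, and Arhgap10 in organoids (1.06) is the only ratio whose interval includes 1.

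Set side by side, all 7 genes were higher in Eed KO than in WT crypts by edgeR's quasi-likelihood test, where 13.4% of the 14406 genes tested were called higher, or 1932 genes. Without the Ezh2 KO libraries 1465 genes were called higher, and with replicate numbers as a block besides 1046, the 7 among them each time. All 7 had every Eed KO library above every WT library, as did 17.3% of all genes tested. The count of 7 is not independent of the choice, since low levels in the same WT libraries helped to choose the genes. Moreover, 2 of the 7, Cecr2 and Arhgap10, would have passed the filter on low counts through the WT libraries alone, so the others could be tested only where a knockout was higher. Run 440, where all crypts had a female pattern, holds 1 Eed KO and 1 WT crypt, so that a test there assumes that both vary as the Ezh2 KO libraries do. In it Wfdc2, Hapln4, Cecr2 and Chn1 passed, and the differences of Arhgap10, H2afy2 and Fign given above, which did not, had the same direction as in all crypts.

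In organoids 4 of the 6 genes tested were higher in Eed KO (Wfdc2, Cecr2, Chn1 and H2afy2), where 13.5% of 12958 genes tested were called higher. Of the 6 genes tested, all but Arhgap10 had both Eed KO organoids above both WT organoids, against 31.3% of 12902 tested genes. Fign, which was not tested there, had this order too. The filter limits that count as well, since Arhgap10 alone passed it through the WT organoids. Of the differences between the Eed effects, 2 were called higher in crypts (Wfdc2 and Arhgap10), where 1.13% of 14761 genes were, and 2 lower (Cecr2 and H2afy2), where 2.99% were. The WT crypts that helped to choose the genes enter this comparison, so these counts are not independent of the choice. The median of all genes in that comparison was -0.14 on the log2 scale.

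Within run 440 the knockouts could be set beside each other in the same run. The Eed KO library lay within the range of the Ezh2 KO libraries for 3 genes (Arhgap10, H2afy2 and Fign), below it for 2 (Hapln4 and Chn1) and above it for 2 (Wfdc2 and Cecr2). The mean Ezh2 KO level there was 1.09 times the Eed KO level for Arhgap10, 1.02 times for H2afy2, 0.99 times for Fign, 1.1 times for Chn1, 1.33 times for Hapln4 and 0.789 times for Cecr2. For Wfdc2 it was 0.0265 times. These ratios rest on 1 Eed KO library and have no test.

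**Figure D4:**
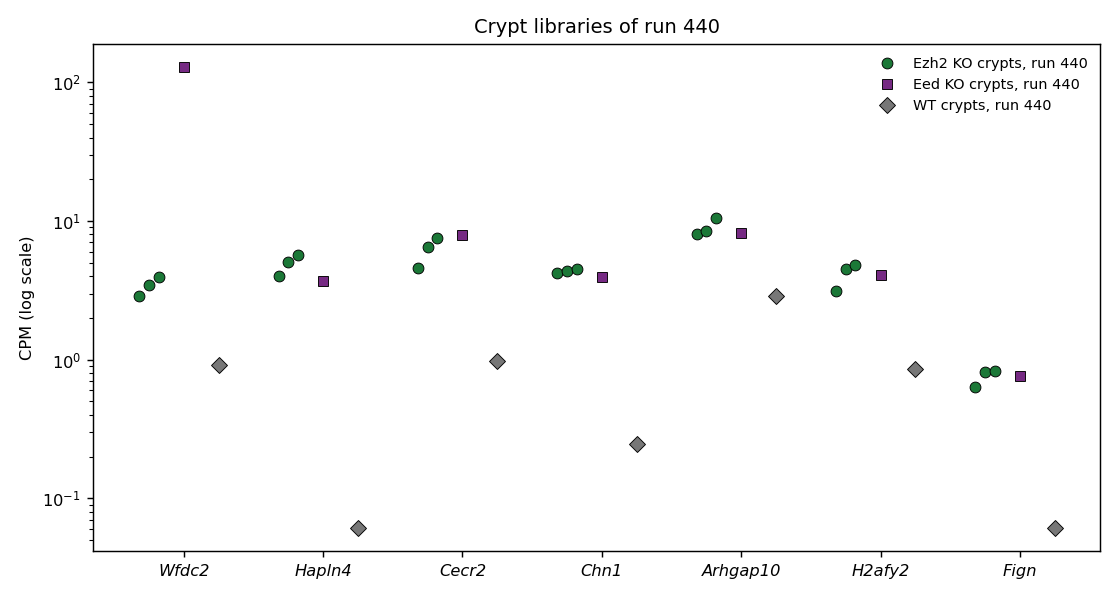
Level of each gene (CPM, log axis) in the 5 crypt libraries of run 440: 3 Ezh2 KO (circles), 1 Eed KO (square) and 1 WT (diamond). The Ezh2 KO points and the Eed KO point lie close together for each gene but Wfdc2, where Eed KO stands at 129 CPM and Ezh2 KO at 2.87 to 3.93 CPM.

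Per kilobase of exon, using exon lengths from GENCODE M21, Wfdc2 had the highest level of the 7 in Ezh2 KO crypts at 3.0 ± 0.466 CPM per kb, followed within its spread by Arhgap10 at 2.91 ± 0.420 CPM per kb. H2afy2 came next at 1.90 ± 0.412 CPM per kb, then Hapln4 at 1.25 ± 0.216, Chn1 at 0.683 ± 0.025, Cecr2 at 0.363 ± 0.0889 and Fign at 0.0758 ± 0.0109 CPM per kb (SD, n = 3 each). In Eed KO crypts Wfdc2 led at 98.4 ± 14.1 CPM per kb, ahead of Arhgap10 at 2.74 ± 0.143 CPM per kb, and Chn1 at 0.685 ± 0.0793 and Cecr2 at 0.694 ± 0.202 CPM per kb lay within each other's spread. In WT crypts Arhgap10 was highest at 0.897 ± 0.0782 CPM per kb, and Fign was lowest at 0.00502 ± 0.00457 CPM per kb.

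Over all 13 libraries, which fall into 5 groups and share runs, the log2 CPM of the genes other than Arhgap10 correlated with each other at a Pearson r of 0.693 (Hapln4 and Cecr2) to 0.955 (Cecr2 and H2afy2). Pairs with Arhgap10 had r of 0.177 (with Cecr2) to 0.605 (with Hapln4). The 13 libraries include the Ezh2 KO and WT crypts that chose the genes, so the choice itself favours positive r between them. Among 13863 protein-coding genes, those most like each gene were Plcd4 (r = 0.981) and Sct (0.981) for Wfdc2, Sobp (0.899) and Ccdc92 (0.869) for Hapln4, and Prkch (0.972) for Cecr2. They were Fam118a (0.933) and Cecr2 (0.932) for Chn1, Igf2bp2 (0.923) and Mtap (0.919) for Arhgap10, Amotl1 (0.967) and Rnf130 (0.964) for H2afy2, and Nova2 (0.945) and Lin28b (0.941) for Fign. These values are descriptions and carry no test.

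The nearest tested gene on each side of each of the 7 was examined as a neighbour. Of these 14, 2 were higher and 0 lower in Eed KO crypts (4 and 1 at an unadjusted p of 0.05, 3 and 1 by DESeq2). The count called higher is near the share over all genes tested, of which 13.4% were called higher and 10.6% lower. They were Gm13704, which overlaps Chn1, and Grb14, an adaptor of the insulin receptor 814438 bp from Fign, at a log2 change of 1.00 ± 0.28 (adjusted p = 0.0337). The Grb14 call was lost without the Ezh2 KO libraries (adjusted p = 0.0695), with the block besides (adjusted p = 0.13), without the low-count filter (adjusted p = 0.0509) and in 5 of the 6 fits that left out 1 library. In organoids 0 of 13 tested were higher (1 at an unadjusted p of 0.05, 0 by DESeq2). Every Ezh2 KO library exceeded every WT library for 3 of the 14 (Rfxank, Atp6v1e1 and Grb14), against the 10.6% of all genes given above.

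Markers of crypt cell types also differed in level between the groups. Enterocyte markers, a list of 14, summed to 4777 to 8967 CPM in Ezh2 KO, 1329 to 5474 CPM in Eed KO and 1926 to 3831 CPM in WT crypts. Every Ezh2 KO library was above every WT library for 7 of the 14, against 10.6% of all genes tested. That order does not account for run, and all Ezh2 KO libraries came from run 440. With run in the fit, the median log2 change of the 14 in Ezh2 KO was -0.0034, against 0.011 over all genes. Paneth cell markers summed to 41255 to 79586 CPM in Ezh2 KO, 21410 to 30352 CPM in Eed KO and 84487 to 123773 CPM in WT crypts, and of the 10, 1 was higher and 4 lower in Eed KO (1 and 7 at an unadjusted p of 0.05, 1 and 8 by DESeq2). Crypt base stem cell markers summed to 5340 to 6049 CPM in Ezh2 KO, 2579 to 3213 CPM in Eed KO and 6127 to 6963 CPM in WT crypts, with 1 of 11 higher and 6 lower in Eed KO. Enteroendocrine markers, a list of 14, summed to 676 to 899 CPM in Ezh2 KO, 426 to 551 CPM in Eed KO and 786 to 910 CPM in WT crypts. Immune markers, with all 19 measured genes detected in each crypt group, summed to 80.8 to 105 CPM in Ezh2 KO, 193 to 258 CPM in Eed KO and 128 to 141 CPM in WT crypts. Mesenchymal, muscle and endothelial markers summed to 174 to 478 CPM in Ezh2 KO, 178 to 382 CPM in Eed KO and 76.2 to 885 CPM in WT crypts, so those groups overlapped. In organoids enteroendocrine markers summed to 1070 to 1277 CPM in Eed KO and 474 to 542 CPM in WT, and goblet cell markers, a list of 11, to 4576 to 6878 CPM in Eed KO and 2241 to 2950 CPM in WT. Immune markers summed there to 4.59 to 7.89 CPM in Eed KO and 3.34 to 4.89 CPM in WT, with 11 of 19 measured genes at 0 counts in Eed KO and 13 in WT. Cd3e and Tyrobp had no count in either organoid group, and Mcpt1 and Ptprc had counts in Eed KO organoids but none in WT organoids. The part of these differences in the levels of the 7 genes was not tested.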

How the data were processed

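Poly(A) RNA of 13 libraries was sequenced with a strand-specific kit, per the labels' protocols. For each sequencing run the authors deposited 1 table of raw gene counts, with Ensembl identifiers and positions, per the file headers. The submitters' processing notes name GRCm38, HTSeq, DESeq2, Bowtie 0.12.9 and TopHat2 2.0.12 without their roles, and no strand setting for counting is named.

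The tables were joined by identifier. Levels are CPM from the deposited counts on TMM-scaled library sizes over all 13 libraries. Tests used edgeR 4.0.16 in R 4.3.3: the quasi-likelihood test with robust dispersion, TMM, the low-count filter by group (minimum count 10, total 15) and Benjamini-Hochberg adjustment over all genes at 0.05. Crypts were fitted with group and run (9 libraries, 14406 genes, 5 residual degrees of freedom), organoids with group (4 libraries, 12958 genes, 2 degrees of freedom), and the difference of the Eed effects over 13 libraries (14761 genes, 7 degrees of freedom). Fold changes of genes near 0 depend on the prior count of edgeR's fit, which was left at its default. A prior count of 2 applied only to the log2 CPM used for correlations. Counting intervals are exact (95%), the floor for 0 counts was 3 counts over the group, and both cover counting error only. DESeq2 1.42.0 and other settings were alternatives. The tests were checked on simulated counts, with modest changes placed in well-counted genes. That check does not cover large folds from WT counts near 0.

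Same-numbered Eed KO and WT crypts deviated together (r = 0.18, 0.386 and 0.35, and 0.161 within run 385 alone), and organoids gave 0.337. The numbers were therefore taken as pairs in alternative fits with a replicate block. The main tests did not use this pairing. The members and lists were chosen with earlier results of these data known. Besides the 7 genes, the text names close paralogs, list genes past the threshold with an absolute log2 change of at least 1 (at most 4 for each list and comparison, from which examples were taken), neighbours and the 2 most correlated genes; a few genes that this rule names are not reported here. Genes at the edge of the rule and markers at 0 were named after their values were seen.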

Additional observations from a re-analysis of the deposited data

Results flagged for a closer look

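The Eed effect, knockout against WT, differed between crypts and organoids for 4 of the 7 genes by the test of the difference itself (edgeR's quasi-likelihood test over 13 libraries, adjusted over 14761 genes). Over all genes tested, 1.13% were called larger in crypts and 2.99% smaller. The WT crypts that helped to choose the genes enter this test, so its calls for the 7 are not independent of the choice. The Eed effect was larger in crypts for Wfdc2, by 3.11 ± 0.59 on the log2 scale (adjusted p = 0.0281), and for Arhgap10, by 1.53 ± 0.30 (adjusted p = 0.0205). It was smaller in crypts for Cecr2, with a difference of -3.09 ± 0.57 (adjusted p = 0.0152), and for H2afy2, with a fitted difference of -5.59 ± 1.16 (adjusted p = 0.0271), a size that depends on the prior count because WT organoids had no H2afy2 count. Arhgap10 stood at 12.2 ± 0.598 CPM in Eed KO and 11.5 ± 1.74 CPM in WT organoids, and at 8.46 ± 0.442 CPM in Eed KO and 2.77 ± 0.241 CPM in WT crypts. All 4 calls were lost when WT organoid 385_1 was left out, and likewise when WT organoid 385_2 was left out. Crypts and organoids differ in induction time, strain background and run, which cannot be told apart from the culture. The male and female patterns differ as well. In run 385 the Eed KO crypts had a female and the WT crypts a male pattern, and the organoids had the reverse.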

How the results depend on the processing

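All 7 genes were called higher in Eed KO crypts under each alternative but run 440 alone, where 4 were. The count of all genes higher in Eed KO crypts was 1932, with 1465 without the Ezh2 KO libraries, 1046 under the replicate block (pairing by number, also without them), 868 in run 440 alone (1 Eed KO against 1 WT library) and 1289 to 2433 when 1 library was left out. The block changed the call of none of the 7 genes in crypts or organoids (4 of 6 there). Among the other genes named, it ended the crypt calls of Cd44 and Arhgap44, and those of Vav3 and Grb14 were lost without the Ezh2 KO libraries already. In run 440 alone Tnc (2.70, adjusted p = 0.0581), Fignl2 (1.97, 0.127), Fignl1 (-1.44, 0.0734), Gm13704 (4.48, 0.0607), Cd44 (0.44, 0.266), Vav3 (0.48, 0.514), Arhgap44 (1.62, 0.178) and Grb14 (1.26, 0.162) did not pass. In organoids 1752 genes were higher, and 1084 to 1583 with 1 library left out; 5 of 7 genes were higher without the low-count filter. For the difference of the Eed effects, leaving out 1 library gave 0 to 3 of the 7 genes higher and 0 to 2 lower, and 67 to 380 of all genes higher and 81 to 907 lower; DESeq2 gave 368 and 835, against 167 and 441. The order of libraries for Ezh2 KO held for all 7 genes under each alternative. Since this order chose them, leaving out libraries could not break it at the same levels, so that result was fixed in advance. Among all genes the order was met by 1528, with 3057 on total counts, 3659 within run 440 and 1664 to 4238 with 1 library left out. With fewer libraries the order is easier to meet. The causes of the other shifts were not tested. Signs turned for values that did not pass the test: Slpi in crypts (-1.73 in run 440 alone, -0.33 to 1.62 with 1 library left out), H2afy in crypts (0.056 in run 440 alone) and in organoids (-0.066 to 0.11 with 1 library left out), Arhgap10 in organoids (-0.084 to 0.25) and the Fign difference (0.019 by DESeq2). Low counts in WT limit the size of the folds of Hapln4, Fign and H2afy2, and with 2 libraries a group the organoid values rest on few degrees of freedom.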
